A study of Mus musculus with 2 samples.

Results

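Presomitic mesoderm is the tissue behind the forming somites, and its cells were divided here by their messenger RNA for Hes7, a transcriptional repressor of the segmentation clock. Cell barcodes were retained when they held at least 8000 unique molecular identifiers (UMIs, each 1 counted RNA molecule) with 0.3 to 10% of them from mitochondrial genes. They also needed at least 4 UMIs of Msgn1 and Tbx6 together, at most 1 of Nkx1-2 and Hes3 together, which mark caudal epiblast, and at most 1 of Mesp2 and Ripply2 together, which mark the forming segment. These criteria left 1930 of 48694 barcodes, 1103 of 30449 in replicate 1 and 827 of 18245 in replicate 2. Cells with at least 2 Hes7 UMIs (Hes7-high, 1233 cells) were compared with cells with 0 (Hes7-negative, 345 cells), and the 352 cells with 1 Hes7 UMI were described apart.

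Embryos of the C57BL/6J strain, wild type and untreated, were dissected at embryonic day 8.5, and their caudal tissue was profiled with a 10x Genomics 5′ single-cell kit in a study of neuromesodermal progenitors. No transgene or mutant allele is named for these samples. Both libraries belong to 1 group, and both Hes7 classes come from the same embryos. The tissue of several embryos was pooled, and the labels do not say whether the libraries came from separate pools.

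The segmentation clock is a gene expression oscillator that runs in each presomitic cell and sets the pace at which somites are cut off. Hes7 represses its own gene and other genes of the cycle, so that its RNA and protein appear in pulses, and Notch, FGF and Wnt signalling each have targets that cycle with it or out of step with it. Notch signalling passes from a ligand on 1 cell to a receptor on its neighbour, whose released intracellular part joins the DNA-binding protein RBPJ and switches on targets such as Lfng, Hes7, Nrarp and Hes5.

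Reference promoter sequences are shown for the Notch targets that the results turn on, because 2 short words in them have a known reading. GTGGGAA (or TTCCCAC on the other strand) is the core of the sequence that RBPJ binds, and CACGTG is an E-box of the kind that Hes-type repressors and other helix-loop-helix factors can bind. Each stretch is from RefSeq on GRCm38.p6 (the mm10 genome), on the plus strand, ends at the base before the transcript, and has these words in capitals. For Hes7 only 30 bases around its GTGGGAA word are shown, since the window overlaps the untranslated region of a neighbouring gene on the other strand.
Lfng chr5:140607091-140607319: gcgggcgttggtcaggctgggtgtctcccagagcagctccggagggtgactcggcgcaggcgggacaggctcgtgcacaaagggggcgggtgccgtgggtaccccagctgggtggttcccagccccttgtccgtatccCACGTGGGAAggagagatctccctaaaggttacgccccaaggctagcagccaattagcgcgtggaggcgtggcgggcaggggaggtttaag
Nrarp chr2:25180508-25180757: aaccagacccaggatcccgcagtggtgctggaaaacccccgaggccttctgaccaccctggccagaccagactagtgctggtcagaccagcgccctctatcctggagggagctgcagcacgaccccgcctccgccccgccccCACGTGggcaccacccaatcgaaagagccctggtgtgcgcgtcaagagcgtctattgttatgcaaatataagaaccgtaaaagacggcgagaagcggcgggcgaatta
Hes5 chr4:154960673-154960922: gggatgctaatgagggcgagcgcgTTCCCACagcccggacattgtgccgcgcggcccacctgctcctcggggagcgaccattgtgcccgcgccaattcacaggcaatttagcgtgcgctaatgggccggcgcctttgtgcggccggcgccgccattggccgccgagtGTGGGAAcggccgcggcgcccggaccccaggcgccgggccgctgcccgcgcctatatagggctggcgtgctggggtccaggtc
Hes7 chr11:69120262-69120291: cctcccctcacTTCCCACatttggggctag

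In the Lfng stretch the words overlapped as CACGTGGGAA, the Nrarp stretch held CACGTG alone, and the Hes5 stretch held GTGGGAA once on each strand. Over all 32851 promoter windows of 300 bases in the table (250 before and 50 after the start), 6.38% held GTGGGAA and 7.15% held CACGTG on either strand. A match is a description of letters and not of binding.

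The Hes7 classes themselves are set by the selection, and their values are given as a description. Replicate 1 held 183 Hes7-negative cells, 180 with 1 UMI and 740 Hes7-high cells (67.1% of 1103, exact Clopper-Pearson 95% interval 64.2 to 69.9%). Replicate 2 held 162, 172 and 493 (59.6% of 827, 56.2 to 63.0%). Intervals of this kind cover counting error only. Hes7-high cells carried a median of 4 Hes7 UMIs in both libraries and at most 46 in replicate 1 and 24 in replicate 2, and their summed Hes7 level was 304 and 314 CPM (a gene's UMIs per 1000000 UMIs summed over a class in 1 library, with no correction for gene length). At least 10 Hes7 UMIs were found in 118 and 58 cells.

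Depth and stray RNA bear on where the classes begin. Median depth was 15315 and 13280 UMIs in the Hes7-negative cells of replicates 1 and 2 and 17347 and 15025 in the Hes7-high cells, so that the high class was the deeper in both libraries. When every cell was thinned at random to 8000 UMIs, 45.0% and 39.4% had at least 2 Hes7 UMIs. Endothelial barcodes, which should lack Hes7, had at least 1 Hes7 UMI in 14% and 11.1% of cells and at least 2 in 4.05% and 1.18%, at median depths of 21430 and 15293 UMIs. These barcodes were taken only where no Msgn1 or Tbx6 UMI was found. That also removes barcodes with stray presomitic RNA, so the background may be higher than these shares. The share of presomitic cells with at least 2 Hes7 UMIs lay above the shares found, whereas a single Hes7 UMI also occurs in cells that should not make it. Just inside the presomitic limit, cells with 4 Msgn1 and Tbx6 UMIs were Hes7-high in 47.8% and 54.0%, and just outside it, cells with 3 were Hes7-high in 40.7% and 51.0%.

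The presomitic label was set beside genes that the selection did not use. Dll1, Dll3, Rspo3 and Cited1, known genes of this tissue, stood at 232 to 947 CPM in the Hes7-negative and Hes7-high sums of both libraries, and the 17 genes of the presomitic list summed to 3130 to 3820 CPM. In the edgeR comparison below, 7 of these 17 were higher in Hes7-high cells and 5 lower (Fn1, Hoxd1, Tbx3, Cdh11 and Aldh1a2). Of all genes tested 1.22% were higher and 1.72% lower. Levels in other cell types are not given, so these values describe the label and do not test it. Lateral plate genes were present as well. At least 1 UMI of Hand1, Hand2, Foxf1, Prrx1, Prrx2 or Gata6 was found in 74.9% and 55.6% of Hes7-negative cells and in 53.8% and 36.3% of Hes7-high cells of replicates 1 and 2. At 8000 UMIs per cell those shares were 63.9% and 51.2% against 40.5% and 25.2%. The selection thus holds cells with lateral plate RNA, more often in the Hes7-negative class. Values without the cells that held any of these UMIs are given beside the signalling and axis genes below.

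The libraries differed from each other in Hoxc10, Xist and globin RNA and shared 761 barcodes, 0 of them presomitic. Hoxc10, a posterior Hox gene, stood at 3.72 CPM in the Hes7-negative cells of replicate 1 and 99.6 CPM in those of replicate 2. Xist, the RNA of the inactive X chromosome, was at 135 and 141 CPM in the classes of replicate 1 and at 0 and 0.125 CPM in those of replicate 2. Embryonic globin RNA was found almost wholly in replicate 2. Each comparison was made within a library, with library as a block.

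Counts were summed per class and library and tested with edgeR (4 sums, n = 2 libraries per class, library as block), and changes are log2 values of Hes7-high over Hes7-negative cells with their standard errors (SE). The p-values measure only how far the 2 libraries disagree, with 1 residual degree of freedom and a spread shared across genes, and not the spread between embryos. Of 11521 genes tested, 140 were higher (1.22%) and 198 lower (1.72%) at an adjusted p under 0.05, 338 in all (2.93%), with a median change over all genes of -0.00. Among the 338, 12 had opposite signs in the libraries. DESeq2 on the same sums called 27 genes (0.234%), 9 higher and 18 lower, and all 27 were among the 338. The genes below that passed with both tools are Lfng, Nrarp, Fgf8, Cyp26a1, Crabp2, Mgst1, Rspo3, Grsf1, Tbx3, Sct, Foxf1, Hand1, Osr1, Hoxc10 and Krt8.

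**Figure D1:**
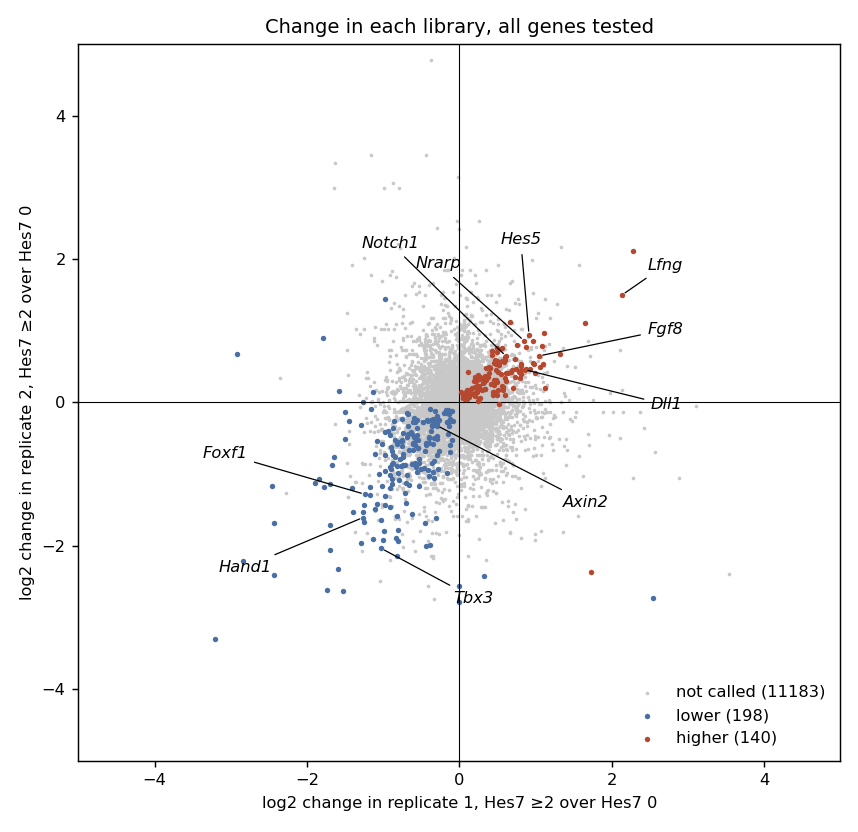
Each point is 1 of the 11521 genes tested, placed by its log2 change of Hes7-high over Hes7-negative cells in replicate 1 (horizontal) and replicate 2 (vertical), coloured by the edgeR call. Lfng lies at 2.14 and 1.5, apart from most of the 140 higher genes. Of the lower genes with labels, Hand1, Foxf1 and Tbx3 lie between -1.03 and -2.04 in both libraries, and Axin2 lies at -0.30 and -0.32.

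The Notch targets Lfng, Nrarp and Hes5 were higher in Hes7-high cells. Lfng encodes Lunatic fringe, a glycosyltransferase that modifies Notch receptors and whose RNA cycles with Hes7. Its gene lies at chr5:140607320-140615545 on the plus strand. It stood at 14.9 CPM in Hes7-negative and 65.6 CPM in Hes7-high cells of replicate 1, and at 24.4 and 68.7 CPM in those of replicate 2. Both high sums lay above both negative sums. The change was 1.84 ± 0.13 (adjusted p = 9.27e-17, edgeR), or 2.14 and 1.5 within replicates 1 and 2, and Lfng had the largest rise among genes of at least 20 CPM on average. Thinned to 8000 UMIs, 12% and 16.0% of Hes7-negative cells held an Lfng UMI (unthinned 19.1% and 21.6%) against 34.6% and 38.7% of Hes7-high cells (unthinned 52.8% and 53.8%).

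Lfng rose step by step with Hes7 inside the high class too. In replicate 1 it stood at 14.9, 29.2, 35.3, 63.2 and 135 CPM in cells with 0, 1, 2 to 3, 4 to 9 and 10 or more Hes7 UMIs. In replicate 2 the same classes gave 24.4, 40.5, 48.2, 78.7 and 105 CPM. No class broke the order in either library. The uppermost class rested on 118 and 58 cells, and its depth was the greatest (median 19104 and 16614 UMIs).

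Nrarp encodes a small ankyrin-repeat protein that is induced by Notch and dampens it, from a gene at chr2:25180758-25183339 on the plus strand. Its level was 65.2 CPM in Hes7-negative and 116 CPM in Hes7-high cells of replicate 1, and 201 and 361 CPM in those of replicate 2. The negative cells of replicate 2 thus exceeded the high cells of replicate 1, and the difference is one within libraries, where the change was 0.85 and 0.86 (joint 0.86 ± 0.06, adjusted p = 1.93e-16, edgeR). It reached 172 and 498 CPM at 10 or more Hes7 UMIs. Gm38287, a transcript that overlaps Nrarp on the other strand, followed with 0.80 ± 0.11. No source used here says whether counting used the strand, so reads of this pair may not be separable.

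Hes5, a Hes-family repressor and Notch target, was low, at 13.3 and 25.1 CPM in Hes7-negative and Hes7-high cells of replicate 1 and 7.15 and 13.9 CPM in replicate 2. Its change was 0.94 ± 0.19 (adjusted p = 4.4e-04, edgeR). It did not pass when cells were matched for depth (0.72, adjusted p = 0.091, edgeR). Nor did it when cells were thinned and their Hes7 classes set again from the thinned counts (0.68, adjusted p = 0.28, edgeR). Those negative classes held 348 and 289 cells, so the contrast is not the same one. Without lateral plate UMIs Hes5 did not pass either (0.39, adjusted p = 0.95, edgeR). In replicate 2 its level had no order above 2 to 3 Hes7 UMIs.

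The other Notch clock genes gave no rise that passed. Hes1, a repressor that oscillates in many cell types, was at 29.5 and 24.3 CPM in replicate 1 and 48.3 and 44.7 CPM in replicate 2 (-0.17 ± 0.12). Hey1 gave 0.19 ± 0.14 and the ephrin Efna1 0.30 ± 0.10, neither past the threshold. Efna1 changed by 0.0095 in replicate 1 and by 0.67 in replicate 2. It passed among cells without lateral plate UMIs (0.79), among those without anterior markers (0.46) and with no filter on low counts (0.33). It did not pass in depth-matched cells (0.26), in thinned cells (0.25) or without other types' markers (0.55). Id1, an inhibitor of helix-loop-helix factors that is also a BMP target, was lower (-0.25 ± 0.06, adjusted p = 0.0068, edgeR), with -0.10 and -0.53 in the libraries. Of 7 tested genes of this list 3 were higher and 1 lower, beside 1.22% and 1.72% of all genes tested. Their median was 0.30, and Heyl had too few counts. Within the wider Hes and Hey family, Hes5 alone passed among 8 tested, beside 2.93% of all genes tested.

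**Figure D2:**
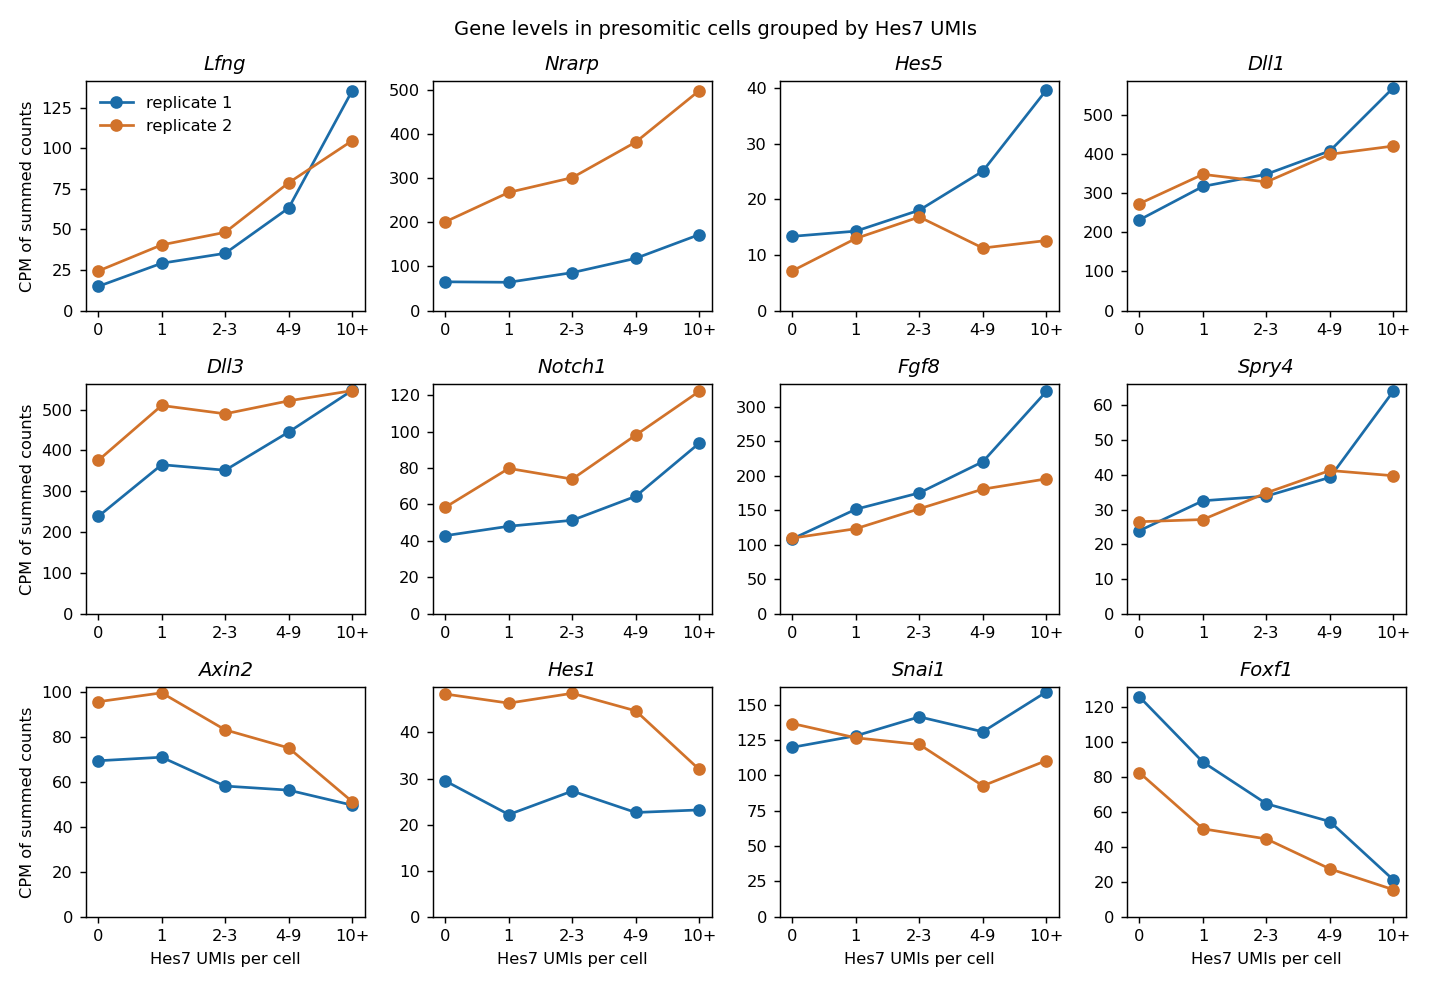
Each panel gives 1 gene's level in CPM of summed counts (vertical) in presomitic cells grouped by their Hes7 UMIs (horizontal), with 1 line per library (n = 1 sum per point, no error bar). Lfng rises in both libraries from under 25 CPM at 0 Hes7 UMIs to over 100 CPM at 10 or more, and Axin2 falls from 69.5 and 95.8 CPM to 49.8 and 51.3 CPM. Hes1 goes from 29.5 and 48.3 CPM to 23.2 and 32.0 CPM, without a steady fall between. Snai1 ends higher in replicate 1 and lower in replicate 2.

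Among Notch ligands and receptors Dll1, Dll3 and Notch1 were higher in Hes7-high cells. Dll1 encodes the ligand that activates Notch in this tissue, and stood at 232 and 415 CPM in Hes7-negative and Hes7-high cells of replicate 1 and at 273 and 371 CPM in replicate 2. Dll3, a divergent ligand of presomitic mesoderm, stood at 238 and 430 CPM in replicate 1 and at 375 and 511 CPM in replicate 2. Their changes were 0.67 ± 0.05 and 0.66 ± 0.05 (adjusted p = 3.09e-15 and 6.41e-16, edgeR), larger in replicate 1 (0.86 and 0.87) than in replicate 2 (0.46 and 0.46). Notch1, the main receptor here, went from 42.8 to 64.8 CPM and from 58.4 to 90.6 CPM (0.63 ± 0.10, adjusted p = 3.3e-06, edgeR). Jag1, Notch2, Notch3 and Notch4 gave -0.28 to 0.44 and did not pass. Thus 3 of 7 tested members were higher and 0 lower, beside 1.22% and 1.72% of all genes tested. Of the 18 tested genes that process the receptor or act with it in the nucleus, 0 passed with edgeR or DESeq2, 1 had an unadjusted p under 0.05 with edgeR, beside 12.2% of all genes tested, and the median was -0.03. Rbpj itself was at 29.8 and 31.4 CPM in replicate 1 and at 41.2 and 39.2 CPM in replicate 2.

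The ligand result moved with lateral plate RNA. Without cells that held 3 or more UMIs of markers of other cell types, 49 of 10716 genes passed (0.457%), and Dll1 gave 0.22 ± 0.06 (adjusted p = 0.16) and Dll3 0.30 ± 0.06 (adjusted p = 0.02, both edgeR). Without cells with any of the 6 lateral plate genes, 33 of 10207 passed (0.323%), and the values were 0.08 ± 0.07 and 0.13 ± 0.07, neither past the threshold. Notch1 gave 0.41 there (adjusted p = 0.60, edgeR), so that 0 of the 7 ligands and receptors passed. Lfng kept 1.68 ± 0.17 and 1.68 ± 0.20 in these subsets and passed in both (adjusted p = 3.2e-06 and 2.7e-10, edgeR). Nrarp gave 0.48 ± 0.07, which passed, and 0.34 ± 0.10, which did not. The last subset held 46 and 72 Hes7-negative cells and 342 and 314 Hes7-high cells in replicates 1 and 2. Their sums held 593551 and 917932 UMIs in the negative class and 5514499 and 4622134 in the high class. The filter acted on unthinned cells, where deeper cells more often hold such a UMI. UMIs per cell fell most in the negative class, so the classes differed more in depth here than in the main comparison.

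Several FGF ligands were higher in the Hes7-high cells. Fgf8, the ligand that keeps presomitic cells immature, stood at 109 and 222 CPM in Hes7-negative and Hes7-high cells of replicate 1 and at 110 and 170 CPM in replicate 2. Its change of 0.88 ± 0.07 (adjusted p = 4.1e-15, edgeR) was smaller but still passed without cells with lateral plate UMIs (0.50 ± 0.10, adjusted p = 0.0017, edgeR). Fgf15, a secreted ligand of the same family, gave 0.91 ± 0.12 with 1.09 and 0.53 in the libraries. Fgf17, Fgf4 and Fgf3 gave 0.58, 0.60 and 0.49, and the transcription factor Etv4, a readout of FGF signalling, gave 0.62 ± 0.09. Without lateral plate UMIs none of these 5 passed, with 0.38 for Fgf15, 0.46 for Fgf17, 0.23 for Fgf4, 0.32 for Fgf3 and 0.47 for Etv4 (adjusted p = 0.78, 0.16, 0.98, 0.83 and 0.25, edgeR). In all 6 of 19 tested ligands, receptors and targets were higher and 0 lower (median 0.10), beside 1.22% and 1.72% of all genes tested. Without lateral plate UMIs 1 of 16 was higher, and 0.323% of all genes tested passed there in either direction. Receptors did not pass, Fgfr1 being at 86.6 and 88.1 CPM in replicate 1 and at 71.0 and 79.3 CPM in replicate 2.

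FGF clock genes, which are feedback inhibitors and other targets reported to cycle, were split. Spry4, an inhibitor of the receptor's signal, went from 23.9 to 41.5 CPM in replicate 1 and from 26.5 to 38.2 CPM in replicate 2 (0.70 ± 0.13, adjusted p = 2.19e-04, edgeR). The phosphatases Dusp6 and Dusp4, which switch off ERK-type kinases, gave 0.41 ± 0.09 and 0.24 ± 0.07. Snai1, a repressor of epithelial genes whose RNA cycles in this tissue, was higher by 0.23 in replicate 1 and lower in replicate 2 (-0.33), and the joint value was -0.01 ± 0.08. Hspg2, a matrix proteoglycan, was lower (-0.64 ± 0.14). Over the list 3 of 10 were higher and 1 lower (median -0.03), beside 1.22% and 1.72% of all genes. Without lateral plate UMIs Dusp4 alone passed of 9 tested (0.56), beside 0.323% of all genes tested. Spry4 gave 0.64 there (adjusted p = 0.43, edgeR).

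Of 10 tested Wnt clock genes 1 was higher and 1 lower (median -0.03), beside 1.22% and 1.72% of all genes tested. Axin2, a feedback inhibitor of Wnt signalling that is known to cycle out of step with the Notch targets, was at 69.5 CPM in Hes7-negative and 55.9 CPM in Hes7-high cells of replicate 1 and at 95.8 and 75.7 CPM in replicate 2. The change was -0.31 ± 0.09 (adjusted p = 0.031, edgeR), with -0.30 and -0.32 in the libraries. Its levels at 10 or more Hes7 UMIs were the lowest of the 5 classes in both libraries, at 49.8 and 51.3 CPM. It did not pass in thinned cells with Hes7 classes set again (-0.39, adjusted p = 0.07) or without cells with lateral plate UMIs (-0.10, adjusted p = 0.99, both edgeR). Nkd1, Dkk1, Dact1 and Myc gave -0.08 to 0.07 and did not pass. Sp5, a Wnt-induced transcription factor, was higher (0.36 ± 0.07), mostly in replicate 1 (0.49 against 0.11), and turned to -0.05 and -0.23 in the 2 subsets without other cell types' markers.

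Of the 29 tested Wnt ligands, receptors and effectors, 4 were higher and 3 lower (median -0.00), beside 1.22% and 1.72% of all genes tested. Wnt3a, the tail-end ligand, gave 0.52 ± 0.12, the Wnt enhancer Rspo3 0.46 ± 0.05, the nuclear effector Lef1 0.27 ± 0.05 and the transcription factor Sp8 0.78 ± 0.20. Wnt5a, a ligand of the planar polarity branch, was lower (-0.28 ± 0.06), as were Rnf43 and Sfrp5, at 12.4 CPM or less in every sum. Without lateral plate UMIs 0 of 24 tested passed, where only 0.323% of all genes tested did. Wnt3a gave 0.46 there, Rspo3 0.13 and Lef1 0.13 (adjusted p = 0.68, 0.86 and 0.92, edgeR).

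**Figure D3:**
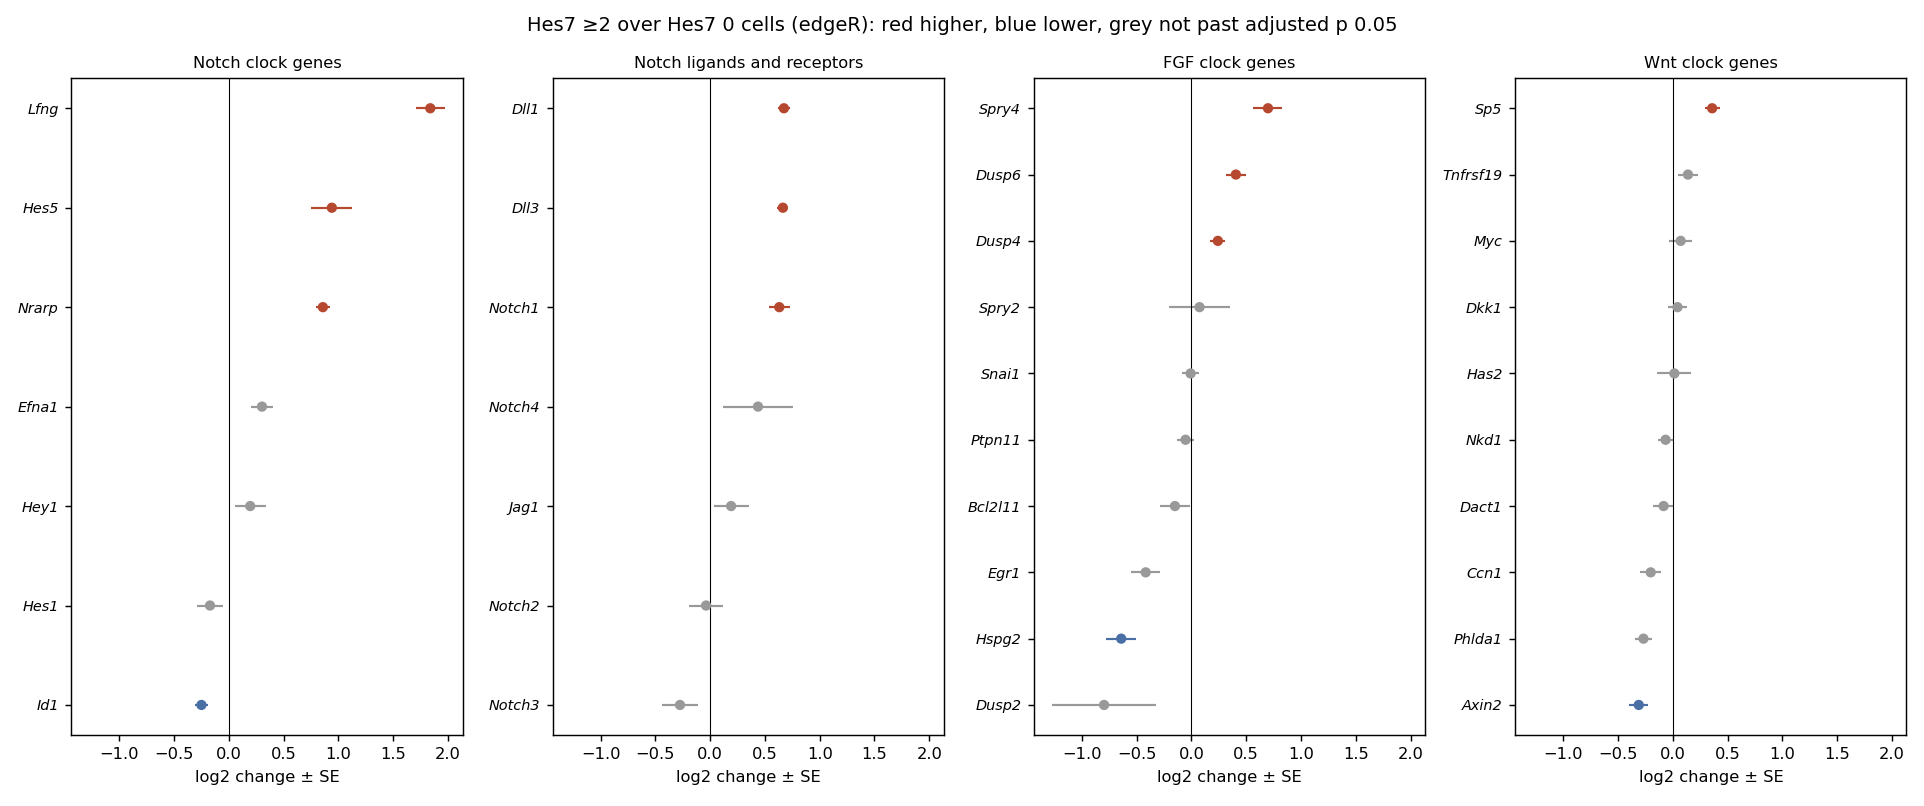
Points are log2 changes of Hes7-high over Hes7-negative cells with their SE (horizontal bars, n = 2 libraries per class) for the tested genes (vertical) of 4 lists, coloured by the edgeR call at an adjusted p of 0.05. The raised genes are Lfng, Hes5 and Nrarp, then Dll1, Dll3 and Notch1, then Spry4, Dusp6 and Dusp4, and among Wnt clock genes Sp5, with Axin2 lower.

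Several genes of the tail end were higher in Hes7-high cells. Of 16 posterior genes 9 were higher and 2 lower (median 0.30), beside 1.22% and 1.72% of all genes tested. The 9 included the signalling genes Fgf8, Fgf17, Fgf4, Wnt3a and Rspo3 named above. T (Brachyury), the transcription factor of the tail bud, went from 82.6 to 133 CPM in replicate 1 and from 117 to 134 CPM in replicate 2 (0.47 ± 0.08), a change of 0.71 in the first and 0.21 in the second. Cyp26a1, which degrades retinoic acid at the tail end, went from 87.2 to 151 and from 152 to 214 CPM (0.65 ± 0.07, adjusted p = 1.68e-10, edgeR) and passed without lateral plate UMIs (0.59 ± 0.11). There 2 of 16 posterior genes passed, Fgf8 and Cyp26a1, beside 0.323% of all genes tested. T gave 0.34 and Hoxb9 0.07 there (adjusted p = 0.46 and 0.99, edgeR). Cdx2 and Hoxb9, which pattern the caudal axis, gave 0.23 ± 0.05 and 0.36 ± 0.07, while Cdx4 was lower by a small amount (-0.15 ± 0.04) and Mixl1, a primitive streak gene, gave -0.47 ± 0.13.

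Among 17 tested genes of the segmenting, anterior end 1 was higher and 4 lower (median -0.42), beside 1.22% and 1.72% of all genes tested. None of the 17 passed with DESeq2. The list summed to 560 and 550.5 CPM in Hes7-negative and Hes7-high cells of replicate 1 and to 532 and 478 CPM in replicate 2. At least 1 UMI of Tcf15, Meox1, Mesp1, Ripply1 or Aldh1a2 was found in 48.6% and 30.9% of Hes7-negative cells. The shares of Hes7-high cells were 52.8% and 33.5%. These cells were not thinned, and the high class was the deeper in both libraries. The shares therefore do not show whether anterior RNA was rarer in the high class. Tcf15 and Meox1, transcription factors of somite cells, gave -0.45 ± 0.10 and -0.45 ± 0.12. Tcf15 stood at 63.0 and 41.4 CPM in Hes7-negative and Hes7-high cells of replicate 1 and at 63.5 and 51.8 CPM in replicate 2. Aldh1a2, which makes retinoic acid, gave -0.33 ± 0.10, and Dmrt2 gave -1.56 ± 0.40 at under 6 CPM. Pcdh19, a cell adhesion gene, was the higher one, in replicate 1 alone (0.52 against -0.02). Without lateral plate UMIs 0 of 12 tested anterior genes passed, where only 0.323% of all genes tested did. Among retinoic acid genes the binding protein Crabp2 was higher (0.53 ± 0.06) and its relative Crabp1 lower (-0.22 ± 0.03), and without lateral plate UMIs they gave 0.25 and -0.06 and did not pass (adjusted p = 0.60 and 0.98, edgeR).

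**Figure D4:**
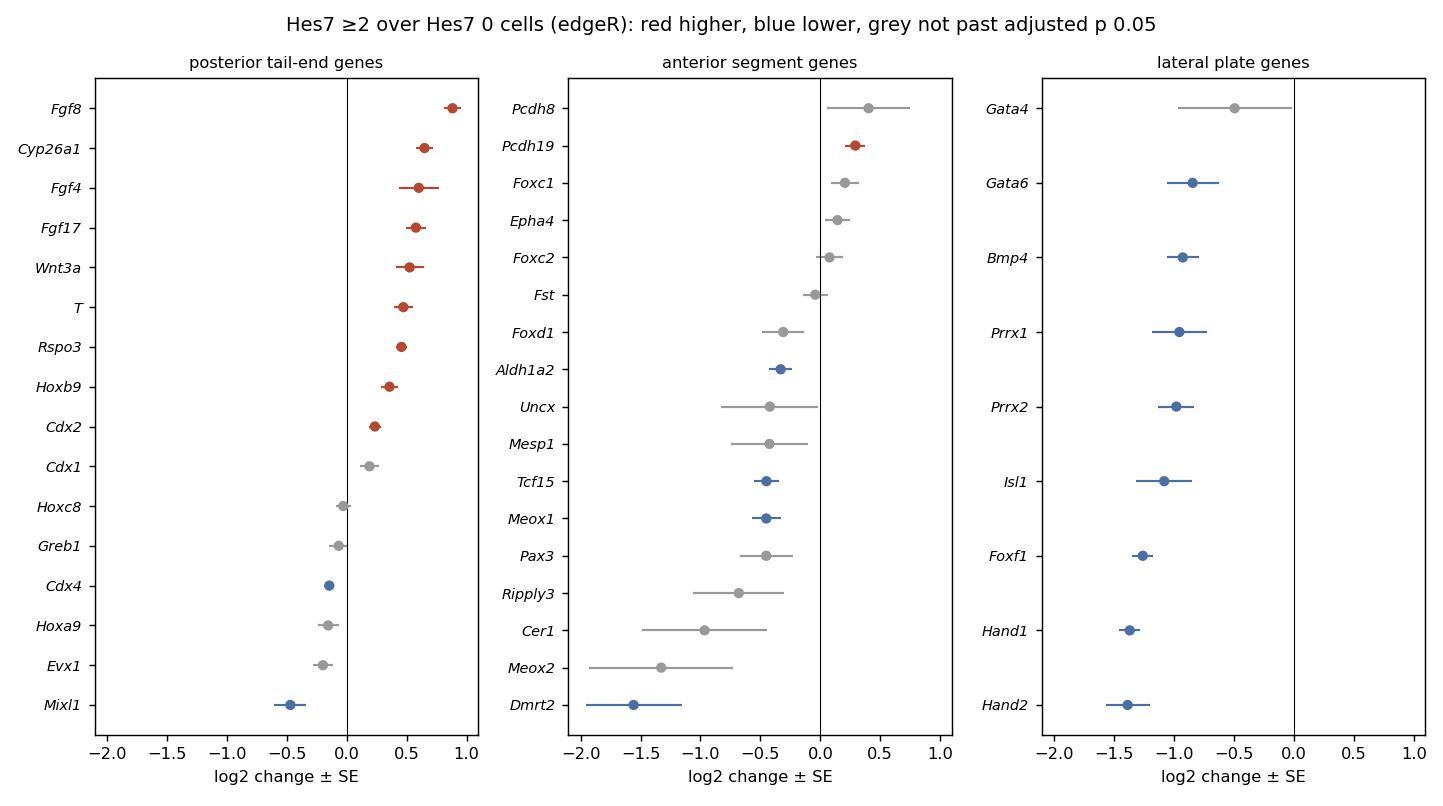
Points are log2 changes of Hes7-high over Hes7-negative cells with their SE (horizontal bars, n = 2 libraries per class) for posterior, anterior and lateral plate genes (vertical), coloured by the edgeR call. Of 16 posterior genes 9 are higher, of 17 anterior genes 4 are lower, and 8 of 9 lateral plate genes are lower. Over all genes tested 1.22% are higher and 1.72% lower.

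The position of the cells was examined by their T and Fgf8 RNA, which 80.9% and 84.0% of Hes7-negative and 92.4% and 92.9% of Hes7-high cells carried. Among cells with a T or Fgf8 UMI, Lfng gave 1.92 ± 0.14, Nrarp 0.82 ± 0.07, Dll1 0.59 ± 0.05 and Axin2 -0.34 ± 0.10, all past the threshold. Without cells that held any UMI of Tcf15, Meox1, Mesp1, Ripply1 or Aldh1a2, Lfng gave 1.81 ± 0.18 and Nrarp 0.72 ± 0.08, both past it, and Axin2 -0.27 ± 0.11, which was not. The subset with T or Fgf8 held most cells of both classes, so it largely repeats the main comparison. Among cells without a T or Fgf8 UMI, Lfng gave 1.29 (adjusted p = 0.031) and Nrarp 0.99 (adjusted p = 8.4e-06, both edgeR). Dll1 gave 0.74 and Dll3 1.22 there, also past the threshold, and Axin2 gave -0.24, which was not.

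Genes of lateral plate mesoderm, the neighbour of paraxial mesoderm, were lower in Hes7-high cells. Of 9 tested, 8 were lower and 0 higher (median -0.98), beside 1.72% and 1.22% of all genes tested. Hand1, a transcription factor of lateral and extraembryonic mesoderm, stood at 143 and 58.7 CPM in Hes7-negative and Hes7-high cells of replicate 1 and at 79.0 and 25.5 CPM in replicate 2 (-1.37 ± 0.09, adjusted p = 8.03e-19, edgeR). Foxf1, which directs splanchnic mesoderm, stood at 126 and 52.4 CPM and at 82.4 and 33.4 CPM (-1.26 ± 0.09). It declined along the whole Hes7 range, to 21.1 and 15.5 CPM at 10 or more UMIs. The list summed to 407 and 293 CPM in Hes7-negative cells and to 182 and 120 CPM in Hes7-high cells, and whether these values reflect doublets, stray RNA or cells between fates was not tested.

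The 12 largest falls among genes of at least 20 CPM included 4 of these lateral plate genes. Besides Hand1, Foxf1, Prrx2 and the secreted ligand Bmp4 they comprised the T-box gene Tbx3 (-1.49 ± 0.18), the hormone gene Sct (-1.28 ± 0.09), Hoxc10 (-1.19 ± 0.14), the BMP target Msx2 (-0.97 ± 0.09), Osr1 of intermediate and lateral mesoderm (-0.88 ± 0.09), Vamp8, Ahnak and Crispld1. Sct stood at 94.7 and 43.2 CPM in replicate 1 and at 119 and 42.0 CPM in replicate 2. It passed without cells with lateral plate UMIs (-1.08 ± 0.20), as did Msx2 (-0.95 ± 0.23), while Tbx3 (-0.40 ± 0.71) and Hoxc10 did not. The 12 largest rises were Lfng, Mgst1, Fgf15, Fgf8, Nrarp, Gm38287, Cdk18, Spry4, Dll1, Dll3, Epha1 and Cyp26a1. Mgst1, a membrane-bound glutathione transferase, went from 36.0 to 75.7 CPM in replicate 1 and from 33.6 to 57.3 CPM in replicate 2 (0.97 ± 0.11, adjusted p = 1.16e-09, edgeR), and gave 0.49 without lateral plate UMIs (adjusted p = 0.38, edgeR).

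Lists of other cell types differed in how many members passed. The caudal epiblast list had 5 of 10 higher and 1 lower, beside 1.22% and 1.72% of all genes tested. Those higher included Fgf8, Fgf17 and Cyp26a1 together with Epha5 (0.59) and Grsf1 (0.42). Among endoderm genes the keratins Krt8 and Krt18 were lower (-0.68 and -0.54), while Sox17 and Foxa2 were at 12.7 CPM or less and did not pass. In the neural tube and endothelial lists 0 of 7 and 0 of 6 passed with edgeR or DESeq2, and 4 and 0 had an unadjusted p under 0.05 with edgeR (12.2% of all genes did). The globin genes Hbb-bh1, Hbb-y, Hba-x and Hba-a1 were lower through replicate 2, where blood genes summed to 5788 CPM in Hes7-negative and 984 CPM in Hes7-high cells and 3 cells in each class held 5 or more globin UMIs. Without those cells 400 genes passed with edgeR.

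Of 20 S-phase genes 0 passed with edgeR or DESeq2 and 4 had an unadjusted p under 0.05 with edgeR, beside 12.2% of all genes (median -0.06). Of 20 G2/M genes Ube2c, which drives the exit from mitosis, passed (0.22 ± 0.04), beside 2.93% of all genes tested. It gave -0.021 when cells were thinned and their Hes7 classes set again. An unadjusted p under 0.05 was found for 8 of these 20 (median 0.09). Of 10 p53 targets, 10 early response and heat shock genes and 5 nuclear-retained RNAs 0 passed with either tool, and 3, 2 and 1 had an unadjusted p under 0.05 with edgeR, again beside 12.2% of all genes. Median mitochondrial shares were 1.03% and 1.03% in replicate 1 and 1.12% and 1.03% in replicate 2.

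Cells with 1 Hes7 UMI were then set beside the Hes7-negative cells, which they share with the main comparison. In this fit 82 of 10440 genes passed (0.785%). Lfng gave 0.85 ± 0.18 (29.2 and 40.5 CPM in the cells with 1 UMI), Dll3 0.53 ± 0.05, Dll1 0.41 ± 0.06, Fgf15 0.63 ± 0.15 and Fgf8 0.35 ± 0.09, all past the threshold. Nrarp gave 0.28 ± 0.08 (adjusted p = 0.071, edgeR) and Axin2 0.05 ± 0.11. Hand1 and Foxf1 were lower (-0.57 ± 0.10 and -0.58 ± 0.10).

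Barcodes that the selection left out gave a second look at the same embryos. In barcodes with under 0.3% mitochondrial UMIs (109 and 16 Hes7-negative, 336 and 36 Hes7-high) 22 of 6487 genes passed (0.339%). Higher there were Nrarp (0.76 ± 0.18), Dll3 (0.86 ± 0.21), Fgf8 (0.61 ± 0.15), Dusp4 (0.68 ± 0.17), Cyp26a1 (0.98 ± 0.23), Crabp2 (0.69 ± 0.14) and Mgst1 (1.18 ± 0.24), and Hand1, Foxf1, Sct and Msx2 were lower. Lfng gave 0.52 ± 0.35 and did not pass. In barcodes of at least 4000 and under 8000 UMIs with at least 2 Msgn1 and Tbx6 UMIs (53 and 31 Hes7-negative, 63 and 31 Hes7-high) 9 of 4380 passed (0.205%), with Dll1 (0.77 ± 0.17), Dll3 (0.85 ± 0.16) and Fgf15 (1.84 ± 0.40) the 3 higher ones. Lfng gave 0.72 ± 0.39 there and did not pass. Why Lfng was smaller in both left-out sets than in the main comparison (1.84) was not tested.

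**Figure D5:**
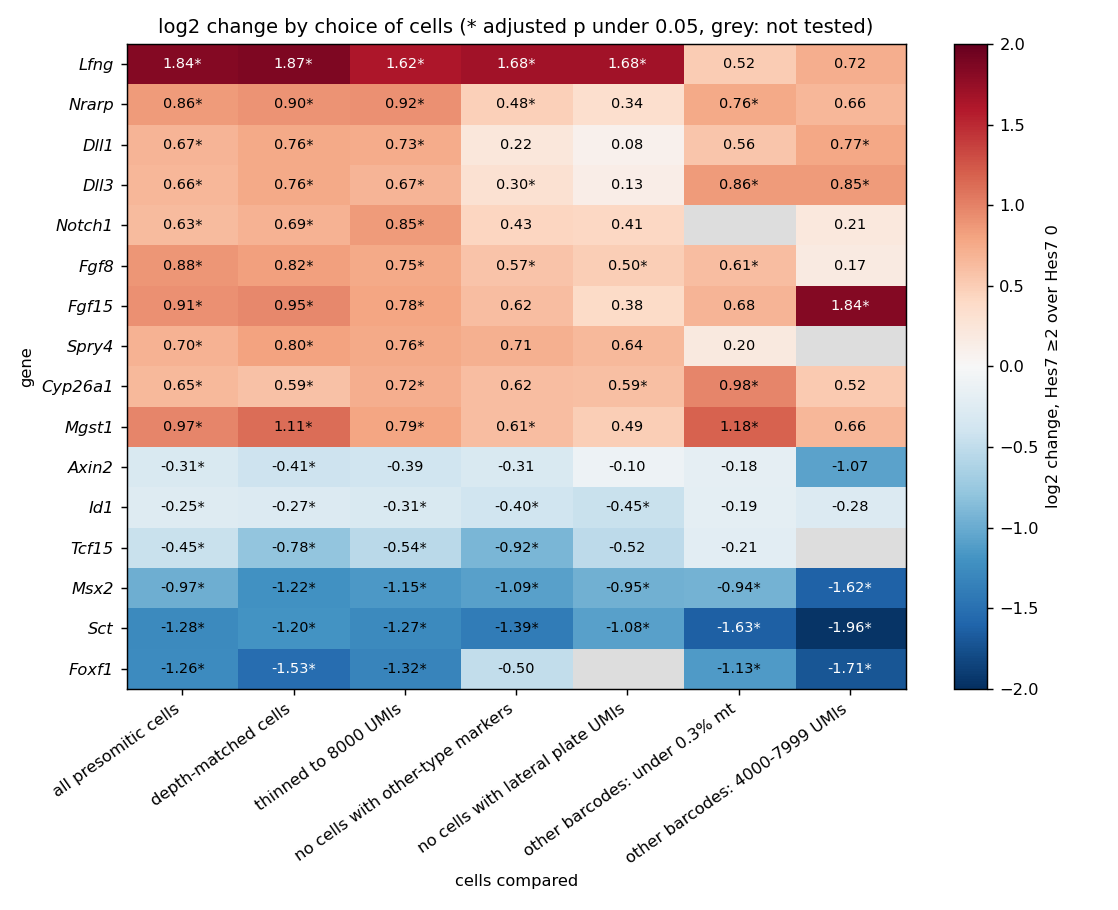
Each cell gives the log2 change of Hes7-high over Hes7-negative cells for 1 gene (vertical) and 1 choice of barcodes (horizontal), with an asterisk for an edgeR adjusted p under 0.05 and grey for genes not tested. In the thinned column the Hes7 classes were set again from the thinned counts. Lfng is between 1.62 and 1.87 in the 5 presomitic columns and 0.52 and 0.72 in the other barcodes, while Dll1 falls from 0.67 to 0.08 without cells that carry lateral plate UMIs.

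Promoter words were counted over the calls as a description. Of the 99 higher genes with a RefSeq window, 8 (8.08%) held GTGGGAA and 17 (17.2%) held CACGTG, and of the 142 lower genes 9 (6.34%) and 17 (12%) did. Over the 9060 tested genes with a window the shares were 7.17% and 12.2%. Only 4 of the 8 Notch clock genes had a window (Lfng, Nrarp, Hes5 and Efna1), and Efna1, which did not pass, held neither word.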

How the data were processed

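The deposited values are counts of UMIs per gene and barcode, made by the authors with Cell Ranger 6.1.1 on mm10, per the submitters' processing notes. The annotation, the use of strand and how barcodes were selected before deposit were not given in the sources used here. Of 32286 features, a custom reporter was left out of tests. The members and gene lists were chosen with earlier results of these data known.

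Counts of the selected cells were summed per Hes7 class and library (2378996 to 14227185 UMIs per sum) and fitted with edgeR 4.0.16 (TMM, filterByExpr, quasi-likelihood test, library as block, R 4.3.3), with Benjamini-Hochberg adjustment over all genes tested and a threshold of 0.05. Same-numbered sums come from the same library, so the block is a true pairing. Hes7, the 6 other selection genes and the 13 mitochondrial genes were left out of calls. The script was tested on simulated counts.

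Named genes are list members and, among genes of at least 20 CPM with the same sign in both libraries, the 12 largest rises and 12 largest falls. No doublet caller was run. Cells with 3 or more UMIs of other types' markers or over 50000 UMIs were left out as an alternative. Depth was matched by drawing equal numbers of both classes per bin of 2000 UMIs, in place of drawing Hes7-negative cells alone as planned, which some bins lack. That setting, and those on T or Fgf8, lateral plate and blood UMIs, were added after seeing the data. DESeq2 1.42.0 was an alternative test. In the thinned fits the Hes7 classes were set again from the thinned counts. The thinned shares of cells with UMIs of other genes keep the classes of the main comparison. Gene positions are from GENCODE M21 and promoters from RefSeq, both on the build of the files.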

Additional observations from a re-analysis of the deposited data

How the results depend on the processing

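The 338 calls became 27 with DESeq2, 165 with at least 8 Msgn1 and Tbx6 UMIs and 196 without cells with anterior markers. They became 49 without other types' markers, 157 in thinned cells with Hes7 classes set again, 33 without lateral plate UMIs and 27 in cells without T or Fgf8. Without the replicate block, which pairs classes of 1 library, 0 genes passed and 165 had an unadjusted p under 0.05. Other settings gave 279 to 447. No filter on low counts turned the split to 254 higher and 193 lower. The share of Hes7-high cells was 59.6% to 67.1% leaving out each library, and 42.2% at 8000 UMIs. The gain in cells with Lfng was 22.6 points (22.6 to 22.7; 32.9 unthinned), with Nrarp 15.9 to 18.7 and with Hes5 4.63 to 5.42 (6.67 unthinned). A count of calls with 1 library has no residual degree of freedom and was not possible.

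Among 70 genes, signs reversed without T or Fgf8 for Hes1 (0.037), Id1 (0.39), Fgf15 (-0.10), Fgf17 (-0.040), Dusp4 (-0.13), Wnt3a (-1.31), Crabp2 (-0.13), Tcf15 (0.0125), Meox1 (0.61), Aldh1a2 (0.50), Crabp1 (0.11), Twist1 (0.49), Epcam (1.45), Snai1 (0.17), Epha1 (-0.31) and Bmp4 (0.35), where 26 to 56 cells made a sum. They reversed without lateral plate UMIs for Sp5 (-0.23), Cdx4 (0.12), Aldh1a2 (0.11), Pcdh19 (-0.24) and Twist1 (0.81), and without other types' markers for Hey1 (-0.068), Sp5 (-0.053), Cdx4 (0.076) and Pcdh19 (-0.16). Ube2c gave -0.021 in thinned cells, Pcdh19 -0.025 without replicate 1 and 0.52 without replicate 2, and Snai1 0.0007, 0.0425 and 0.0251 with Hes7 of at least 1, matched depth and no filter. The cause was not tested. Hes5, Dmrt2, Rnf43 and Sfrp5 rest on low counts.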
